A study of Mus musculus with 2 samples.

Results

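The genes of the major histocompatibility complex and of antigen presentation were described in the mouse uterus before implantation. They were chosen by symbol: every gene whose symbol starts with H2-, plus B2m, Tap1, Tap2, Tapbp, Cd74, Ciita, Nlrc5, Psmb8, Psmb9 and Psmb10. The rule found 54 of the 22740 genes of the deposited table, 44 by the H2- prefix and 10 by name. RNA was measured by poly-A RNA sequencing in whole uterus of 2 C57BL/6 mice on day 4 of pregnancy, 1 library per animal, both labelled WT. These 2 animals are the only group, with no treatment, genotype or time contrast. Their libraries are numbered in the labels, and the uteri are numbered here in the same way. All values are RPKM, reads scaled to transcript length and library size, which can be compared between genes because they are per length. The reads behind them summed to 3831638 in uterus 1 and 4256289 in uterus 2. Markers of the stated tissue were present: Hoxa10, a homeobox factor of the uterus, lay at 112 and 115 RPKM, and Esr1, the oestrogen receptor, at 107 and 99.2 RPKM.

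Class I molecules show peptides from inside the cell to CD8 T cells and to receptors of natural killer cells. Each pairs a heavy chain with beta-2-microglobulin, and its peptide is cut by the proteasome, carried into the endoplasmic reticulum by the TAP transporter and loaded with the help of tapasin. Class II molecules are alpha and beta pairs that show peptides from endosomes to CD4 T cells. They travel with the invariant chain until H2-DM exchanges its remnant for a peptide. CIITA drives transcription of class II genes and NLRC5 that of class I genes, both through promoters that hold an X box and a Y box. In mice most of these genes lie in the H2 complex, where 49 of the 54 genes were annotated: the H2- symbols ran over 3.54 Mb of chromosome 17 (34075854 to 37620474, build mm9). The exceptions were B2m on chromosome 2, Psmb10 and Nlrc5 on chromosome 8, Ciita on chromosome 16 and Cd74 on chromosome 18.

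The listed values of these genes ran from a few abundant transcripts to many at or near 0. A gene counted as detected where it reached 1 RPKM in both uteri. By this measure 27 of the 54 genes (50%) were detected, against 58.4% of all genes of the table. Listed at 0 in both uteri were 15 (27.8%), against 23.4% of all genes. For H2-L, H2-Q6, H2-Q7, H2-Q8, H2-Q9 and H2-T9 the 0 is not read as a limit on RNA, since each shares its span with another entry. The genes at 100 RPKM or more in both uteri numbered 5: B2m, Cd74, H2-K1, H2-Aa and H2-Ab1. H2-Eb1 completed the 6 members among the 500 highest genes of the table. Another 12 genes made up the 18 at 10 RPKM or more in both, of which 10 carried an H2- symbol. The median over all 54 was 1.76 RPKM, against 3.23 RPKM over the whole table. The detection line passed close to 2 class II exchange genes, H2-DMb2 (0.995 and 2.09 RPKM) and H2-Oa (0.995 and 1.34 RPKM), which lay just outside, while H2-Ob (1.56 and 2.38 RPKM) lay just inside.

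**Figure D1:**
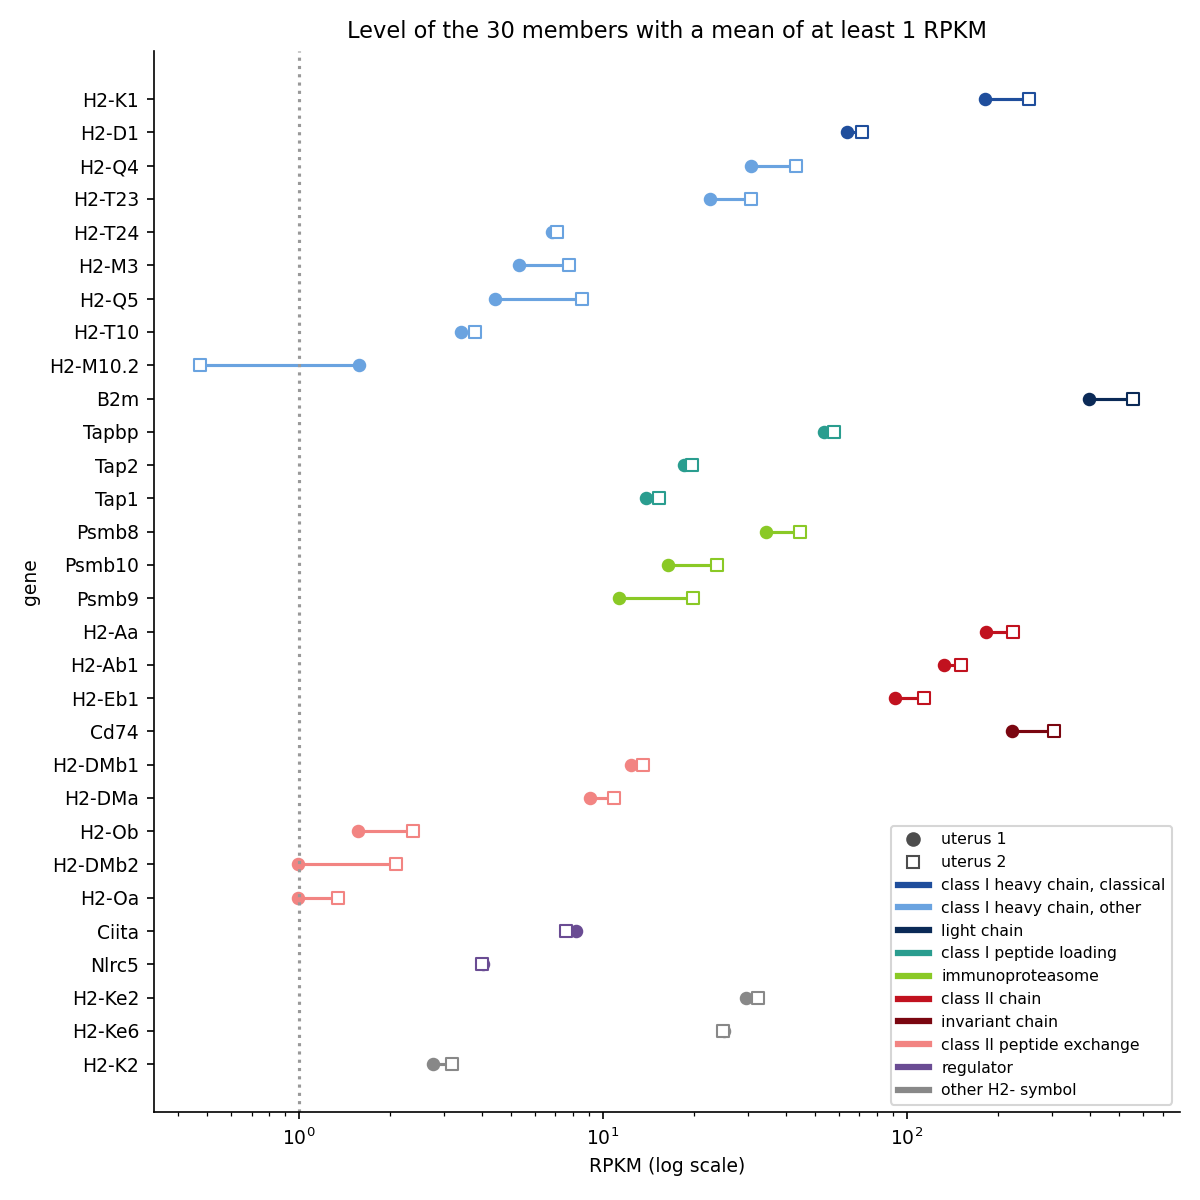
Level of the 30 genes whose mean reached 1 RPKM, by role; the x axis is RPKM on a log scale, filled circles are uterus 1, open squares uterus 2, and the dotted line marks 1 RPKM. B2m is highest at 398.5 and 556 RPKM, and 26 of the 30 genes have the open square to the right of the circle.

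The promoters of the abundant class I genes are shown first because the heavy chains are regulated through short shared boxes. RefSeq promoter windows (build GRCm38.p6, 250 bases before to 50 bases after each start) were matched for 37 of the 54 genes. Capitals mark the pentamer CCAAT on either strand (so CCAAT or ATTGG), the core of the Y box bound by NF-Y, and GGGATTCC on either strand, the core of an NF-kappa-B site. The stretches lie at chr17:34000344-34000472 (minus strand) for H2-K1, chr17:35262909-35263060 (plus strand) for H2-D1 and chr17:35379523-35379581 (plus strand) for H2-Q4.
H2-K1: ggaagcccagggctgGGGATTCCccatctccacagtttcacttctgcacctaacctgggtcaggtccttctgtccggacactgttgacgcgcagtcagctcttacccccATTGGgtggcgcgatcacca
H2-D1: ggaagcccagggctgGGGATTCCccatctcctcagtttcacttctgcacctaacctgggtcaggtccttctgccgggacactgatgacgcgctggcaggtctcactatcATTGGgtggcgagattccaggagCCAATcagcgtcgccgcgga
H2-Q4: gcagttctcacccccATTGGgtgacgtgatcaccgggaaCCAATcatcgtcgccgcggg
From their 5′ ends, the H2-K1 and H2-D1 stretches were identical at 113 of 129 positions without gaps, and their longest shared word was 40 bases. The NF-kappa-B core was found in 4 of the 37 windows (H2-K1, H2-D1, H2-Q6 and H2-Q7) and in 1.07% of 27025 promoter windows of the same length. GGGATTCC was chosen after seeing the data, so these shares are no test of enrichment. The Y box core was found in 31 of the 37 windows, against 37.9% of all windows. It was present in 17 of 20 windows of genes whose mean reached 1 RPKM and in 9 of 10 windows of genes listed at 0 in both uteri. A match says only that these letters stand in the window.

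Among the classical class I heavy chains, which present peptides to CD8 T cells, H2-K1 was the most abundant. Its level was 181 RPKM in uterus 1 and reached 252 RPKM in uterus 2 (217 ± 50.5, SD, n = 2), from 1142 and 1768 reads, and ranked 184 among the 22740 genes. H2-D1 lay at 63.9 and 71.6 RPKM (67.7 ± 5.48), from 425 and 529 reads. The ranges of these 2 genes did not overlap, and H2-K1 exceeded H2-D1 by 2.83 and 3.52 times. H2-K1 thus held 56.2% and 58.9% of the summed RPKM of the 31 class I heavy chain entries (322 and 428 RPKM), a sum in which 14 entries count as 0. H2-L, a further classical heavy chain, was listed at 0 in both uteri. Its span (chr17:35400068-35403675, mm9) lies wholly inside that of H2-D1 (chr17:35400039-35404442) on the same strand and covers 81.9% of it. How reads on shared bases were counted is not given in the sources used here, so the values of H2-D1 and H2-L are uncertain. A further entry on that strand, LOC547349, was listed at 0 in both uteri. It overlaps 39% of the H2-D1 span and 26.4% of the H2-L span and contains all of H2-Q1, so the value of H2-Q1 is uncertain too.

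Only a few of the 28 other class I heavy chain entries reached 1 RPKM, and 6 of the 28 were detected. H2-Q4, a non-classical chain of the Q region, was the highest at 30.8 and 43.4 RPKM, from 212 and 331 reads. H2-T23, which encodes Qa-1, the ligand of the CD94/NKG2 receptors of natural killer cells, followed at 22.6 and 30.7 RPKM, from 114 and 172 reads. The ranges of these 2 genes did not overlap, but the lower H2-Q4 value stood just above the higher H2-T23 value. H2-T24 lay at 6.81 and 7.11 RPKM. H2-M3, which presents formylated peptides of bacteria and mitochondria, lay at 5.31 and 7.75 RPKM. H2-Q5, annotated by RefSeq as a transcribed pseudogene, lay at 4.42 and 8.55 RPKM from 20 and 43 reads, so the ranges of H2-T24, H2-M3 and H2-Q5 overlapped. H2-T10, also annotated as a transcribed pseudogene, lay at 3.42 and 3.81 RPKM. H2-M10.2, of a family known from the vomeronasal organ, lay at 1.58 and 0.475 RPKM, from 6 and 2 reads.

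The light chain was far above any single heavy chain. B2m, which encodes beta-2-microglobulin, lay at 398.5 and 556 RPKM (477 ± 112, SD, n = 2), from 1311 and 2032 reads, and ranked 105 of all genes. Its level was 1.24 and 1.30 times the deposited sum of the class I heavy chains, in which entries with uncertain zeros count as 0, and 2.20 times that of H2-K1 in each uterus. B2m (chr2:121973423-121978818, plus strand) lies wholly inside the span of Patl2 on the opposite strand, and Patl2 was listed at 0. H2-T23 and H2-T24 lie inside A930015D03Rik on the opposite strand, which lay at 5.88 and 5.59 RPKM. Whether the counting used strand is not given in the sources used here, so part of the reads of these 2 genes cannot be told apart from those of that gene. B2m and H2-T23 were 2 of the 3 genes, with H2-T22, whose window held the core of an interferon-stimulated response element (GAAA, any 2 bases, GAAA, on either strand), which was found in 3.49% of all windows. It is shown in capitals beside the Y box core, for B2m at chr2:122147533-122147653 (plus strand) and H2-T23 at chr17:36032734-36032840 (minus strand), GRCm38.p6.
B2m: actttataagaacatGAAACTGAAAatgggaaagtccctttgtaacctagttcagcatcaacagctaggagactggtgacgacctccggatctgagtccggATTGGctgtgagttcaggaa
H2-T23: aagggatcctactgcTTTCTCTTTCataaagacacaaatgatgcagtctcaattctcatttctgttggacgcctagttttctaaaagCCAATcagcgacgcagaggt
Both matches lay more than 100 bases before the start, and in both stretches the Y box core stood closer to the start. Only the strict letters of the interferon core were searched, so a window without a match may hold another form of the element. The H2-K1 and H2-D1 windows held no match, which does not show that they lack it.

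The peptide loading genes were moderately abundant and close in the 2 animals. Tapbp, which encodes tapasin, the bridge between the transporter and the heavy chain, lay at 53.4 and 57.6 RPKM. The 2 subunits of the TAP transporter were lower, Tap2 at 18.5 and 19.7 RPKM and Tap1 at 13.9 and 15.3 RPKM. Tapbp exceeded Tap1 by 3.85 and 3.77 times, and Tap2 exceeded Tap1 by 1.34 and 1.29 times, so the order of the 3 genes was the same in both uteri. Among 7 further loading genes all were detected. The highest were Calr (calreticulin, a chaperone of class I heavy chains) at 289.7 and 389 RPKM and Pdia3 (the disulphide isomerase ERp57 of the loading complex) at 169.5 and 189.8 RPKM.

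The 3 immunoproteasome subunits, which replace catalytic subunits of the standard proteasome and favour peptides that fit class I grooves, were all detected. Psmb8 (LMP7) lay at 34.5 and 44.6 RPKM, Psmb10 (MECL-1) at 16.4 and 23.9 RPKM and Psmb9 (LMP2) at 11.3 and 19.8 RPKM. The ranges of Psmb9 and Psmb10 overlapped. Each was below the constitutive subunit whose place it takes. Psmb8 was 0.627 and 0.978 times the level of Psmb5 (55.1 and 45.6 RPKM). Psmb10 was 0.201 and 0.312 times that of Psmb7 (81.8 and 76.4 RPKM), and Psmb9 was 0.145 and 0.248 times that of Psmb6 (78.0 and 80.1 RPKM). All 3 ratios were higher in uterus 2. All 13 proteasome genes outside the rule were detected, led by Psma7 (97.4 and 102 RPKM) and Psma4 (88.05 and 93.7 RPKM), subunits of the outer alpha rings.

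**Figure D2:**
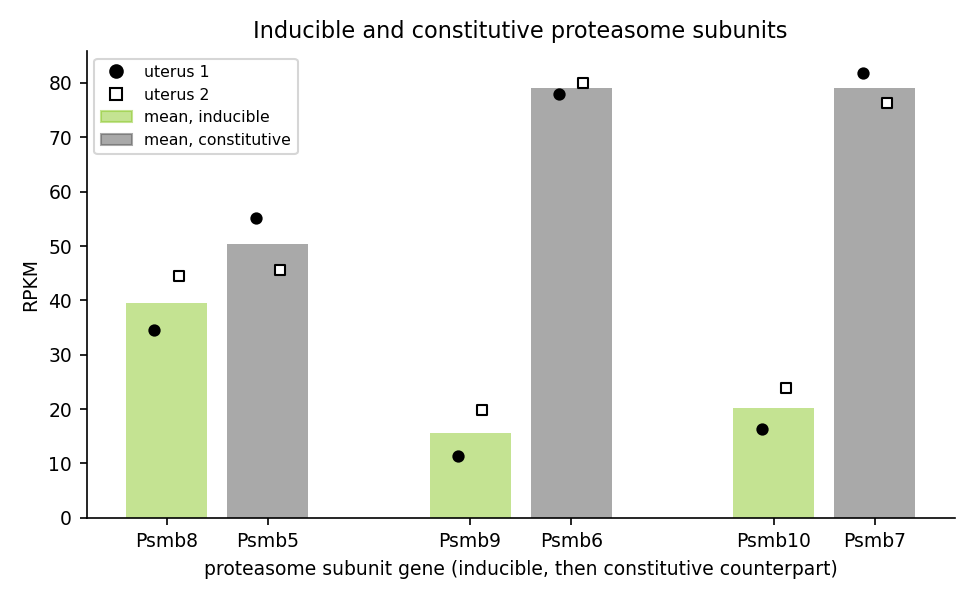
RPKM of each immunoproteasome subunit (green bars) beside its constitutive counterpart (grey bars); bars are means of the 2 uteri, circles uterus 1 and squares uterus 2. Psmb9 and Psmb10 stay at or below 23.9 RPKM where Psmb6 and Psmb7 lie between 76.4 and 81.8 RPKM, and Psmb8 in uterus 2 (44.6 RPKM) nearly meets Psmb5 (45.6 RPKM).

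Psmb9 and Tap1 stand head to head, with starts 226 bases apart on opposite strands, and one Y box core lies in the window of each. It is shown at chr17:34187319-34187353 (GRCm38.p6), read on the minus strand for Psmb9 and on the plus strand for Tap1.
Psmb9: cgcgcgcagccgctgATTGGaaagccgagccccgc
Tap1: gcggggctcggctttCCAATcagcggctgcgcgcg
Counted from each start, the match lay at bases -8 to -4 for Psmb9 and at -222 to -218 for Tap1. The level in uterus 2 was 1.75 times that in uterus 1 for Psmb9 and 1.10 times for Tap1, and whether these ratios differ was not tested.

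The class II chains were among the most abundant of these transcripts. H2-Aa, the alpha chain of the I-A molecule, lay at 182 and 224 RPKM (203 ± 29.5, SD, n = 2), and its partner H2-Ab1 at 132.5 and 151 RPKM (142 ± 13.4). H2-Eb1, the beta chain of the I-E molecule, lay at 91.9 and 114 RPKM (103 ± 15.7). The ranges of these 3 chains did not overlap, and H2-Aa exceeded H2-Ab1 by 1.37 and 1.48 times. H2-Ea-ps, the I-E alpha chain, was listed at 0 in both uteri. C57BL/6 mice are known to carry a haplotype with no working copy of this gene. H2-Eb2 was listed at 0.154 and 0.0695 RPKM, from 2 and 1 reads. The class II chains summed to 407 and 489 RPKM, against 322 and 428 RPKM for the class I heavy chains, whose sum may be too low because of such zeros.

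Cd74, which encodes the invariant chain, lay at 223 and 307 RPKM (265 ± 59.2, SD, n = 2), from 1210 and 1847 reads, and ranked 156. Of the 54 genes, B2m alone had a higher mean. The range of Cd74 overlapped those of H2-K1 and of H2-Aa in part: its value in uterus 1 lay below those of both in uterus 2. Cd74 exceeded H2-Aa by 1.23 and 1.37 times. The 5 genes of peptide exchange were much lower, with a median of 1.97 RPKM. The 2 subunits of the exchange factor H2-DM that led them were H2-DMb1 at 12.4 and 13.5 RPKM and H2-DMa at 9.12 and 10.9 RPKM. The second beta subunit, H2-DMb2, lay at 0.995 and 2.09 RPKM, from 6 and 14 reads, so H2-DMb1 exceeded it by 12.4 and 6.47 times. H2-DMb1 and H2-DMb2 resemble each other: 27.1% and 29.3% of the 50-base words of their transcripts occurred in a transcript of another gene, mostly each other's, so reads could be split between them. The subunits of H2-DO, a modulator of H2-DM in B cells, were near the detection line, H2-Ob at 1.56 and 2.38 RPKM and H2-Oa at 0.995 and 1.34 RPKM. H2-Oa lies inside BC051537 on the opposite strand (0.156 and 0.141 RPKM).

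The class II promoters are shown for the boxes that CIITA works through. Capitals mark the Y box core, in H2-Aa also the cAMP response element TGACGTCA that CREB proteins bind, and in H2-Eb1 and H2-DMb1 the letters AACNGATG on either strand, taken as an X box core. The stretches lie at chr17:34287852-34287912 (minus strand), chr17:34305763-34305851 (plus strand) and chr17:34153084-34153149 (plus strand), GRCm38.p6.
H2-Aa: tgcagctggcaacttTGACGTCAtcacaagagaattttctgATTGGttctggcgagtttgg
H2-Eb1: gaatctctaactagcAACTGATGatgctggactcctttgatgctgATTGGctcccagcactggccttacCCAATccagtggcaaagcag
H2-DMb1: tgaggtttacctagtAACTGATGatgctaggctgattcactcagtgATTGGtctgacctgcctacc
The longest word shared by the H2-Eb1 and H2-DMb1 stretches was 13 bases and began with the X box core. In both, the X box core lay upstream of a Y box core, at bases -89 and -92 from the start. AACNGATG was found in 4 of the 8 class II chain and exchange windows (H2-Eb1, H2-Eb2, H2-DMb1 and H2-DMb2) and in H2-M10.4, against 2.33% of all windows. AACNGATG was chosen after seeing the data, so these shares are no test of enrichment. The Y box core was found in 7 of the 8, and TGACGTCA in H2-Aa alone of the 37 windows, against 1.88% of all windows. H2-Eb1 and H2-Eb2 both held the X box and Y box cores, and their levels were 91.9 and 114 RPKM against 0.154 and 0.0695 RPKM.

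The regulators were low. Ciita lay at 8.15 and 7.55 RPKM, from 178 and 183 reads, and Nlrc5 at 4.06 and 4.03 RPKM, from 108 and 119 reads. These were 2 of the 4 genes averaging 1 RPKM or more that were not higher in uterus 2. The level of Cd74 over that of Ciita was 27.3 in uterus 1 and 40.6 in uterus 2. All 11 genes of the transcription list were detected: Rfx5, a subunit of the X box complex, lay at 10.65 and 9.98 RPKM, Irf1, an interferon response factor, at 18.6 and 21.3 RPKM, and Nfyc, a subunit of NF-Y and the highest of the list, at 26.8 and 24.8 RPKM. All 7 genes of the class II route were detected as well, led by the endosomal proteases Ctsb (141 and 162 RPKM) and Ctsl (90.1 and 93.2 RPKM). Of 9 class-I-like genes named outside the complex, 6 were detected, led by Fcgrt (the neonatal Fc receptor, 48.0 and 51.2 RPKM) and Mr1 (which presents vitamin B metabolites, 21.0 and 16.1 RPKM). Azgp1 and Mill1 were listed at 0 in both uteri, and Cd1d2 at 0.210 and 0 RPKM. Of the 6 genes on the costimulation list, whose single functions were not examined, 4 were detected. The highest were Icosl (6.07 and 6.498 RPKM) and, by a small margin in the mean, Cd40 (1.90 and 1.05 RPKM), and Pdcd1lg2 was listed at 0. In uterus 2 Cd80 (2.07 RPKM), Cd86 (1.57 RPKM) and Cd274 (1.49 RPKM) were above Cd40.

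Among the H2- symbols, 3 name genes of the K region rather than antigen presenting chains. H2-Ke2, whose RefSeq symbol is Pfdn6, encodes a prefoldin subunit and lay at 29.7 and 32.4 RPKM. H2-Ke6, also known as Hsd17b8, encodes a steroid and fatty acid dehydrogenase and lay at 25.2 and 24.9 RPKM. H2-K2, a transcribed pseudogene, lay at 2.76 and 3.19 RPKM. Along the chromosome, H2-K1 lies between H2-K2 and H2-Ke6. The abundant class II chains H2-Ab1, H2-Aa and H2-Eb1 lie side by side and are followed by H2-Eb2 and H2-Ea-ps.

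**Figure D3:**
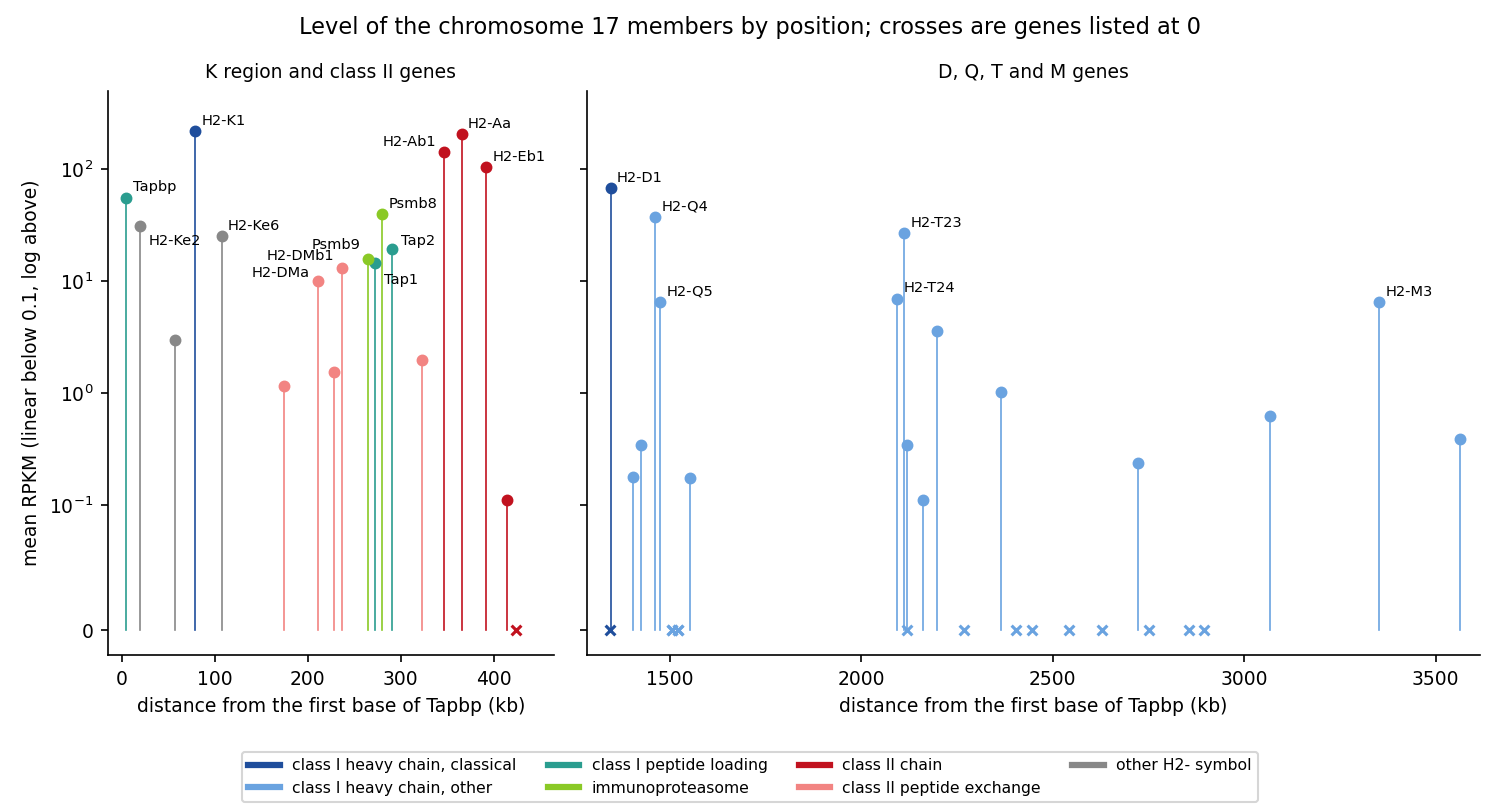
Mean RPKM of the 49 chromosome 17 genes (y axis, linear below 0.1 and log above) against the distance of each gene's midpoint from the first base of Tapbp in kb, in 2 panels that leave out a stretch without these genes; colours are roles and crosses are genes listed at 0 in both uteri. H2-K1, H2-Ab1, H2-Aa and H2-Eb1 stand above 100 RPKM on the left, and 14 of the 15 crosses lie in the right panel.

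The genes listed at 0 in both uteri were H2-L, H2-Ea-ps, H2-Q6, H2-Q7, H2-Q8, H2-Q9, H2-T3, H2-T9, H2-M1, H2-M10.1, H2-M10.3, H2-M10.4, H2-M10.5, H2-M10.6 and H2-M11. Of the 31 class I heavy chain entries, 14 were among them. Another 9 genes were above 0 with a mean under 1 RPKM and 0 to 4 reads in a library: H2-M5, H2-M2, H2-T22, H2-Q2, H2-M9, H2-Q1, H2-Eb2, H2-Q10 and H2-Bl. Their means ran from 0.112 to 0.625 RPKM. H2-Q10 had 2 reads in uterus 1 and 0 in uterus 2, which allows up to 0.479 RPKM (3 reads), and H2-Bl had 1 read and 0, which allows up to 0.606 RPKM. H2-Q7 and H2-Q9 encode Qa-2, H2-T3 the thymus leukaemia antigen and H2-T22 a ligand of gamma delta T cells.

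A value of 0 has to be read with the annotation. Of the 15 genes listed at 0, 6 share their span with another entry on the same strand. H2-Q6 (chr17:35561822-35565306, mm9) lies inside H2-Q8 (chr17:35561792-35565306), and H2-Q9 (chr17:35576112-35580715) inside H2-Q7 (chr17:35576100-35580718), and all 4 were listed at 0. H2-T9 (chr17:36175354-36179637) shares 100% of its span with H2-T22, and H2-L with H2-D1. Outside these genes, entries that nearly coincide were also often listed at 0. Of 257 other genes in same-strand pairs that share at least 90% of both spans, 208 (80.9%) were listed at 0, against 4679 of 19274 genes (24.3%) that overlap no other gene. H2-L and H2-D1 are no such pair, since H2-D1 reaches beyond H2-L. Of the 205 such pairs over the whole table, both genes were listed at 0 in 128 and at least 1 in 152. Read counts of 0 for H2-L, H2-Q6, H2-Q7, H2-Q8, H2-Q9 and H2-T9 are therefore not read as upper limits on their RNA. The other 9 genes listed at 0 overlap no entry on the same strand. For genes at 0 in both uteri no transcript length could be recovered, so no RPKM limit is given for them.

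**Figure D4:**
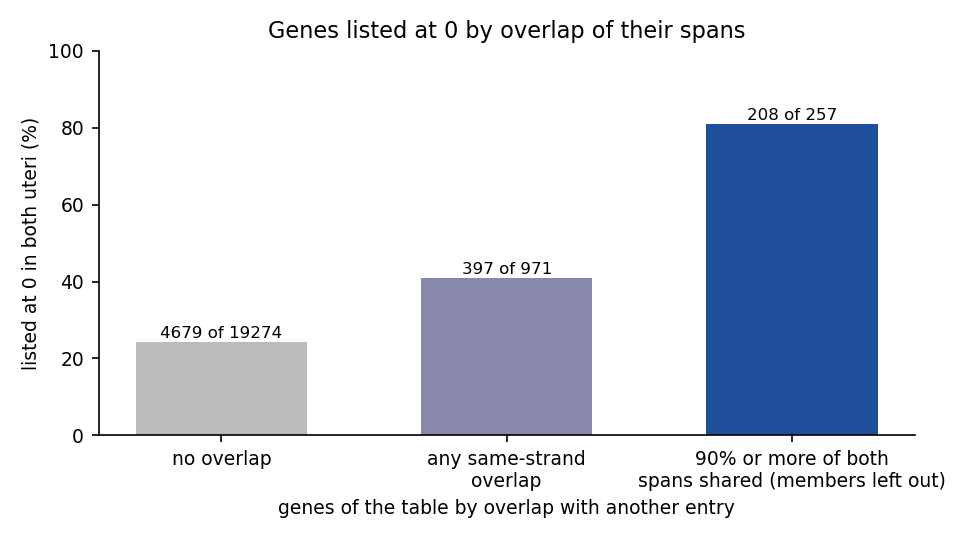
Share of genes listed at 0 in both uteri (y axis, percent) by overlap of the deposited spans, with the number of genes above each bar; the bars are genes without overlap, genes with any same-strand overlap, and genes in same-strand pairs that share at least 90% of both spans, with the members of the complex left out of the last. The share is 24.3% without overlap, 40.9% with any same-strand overlap and 80.9% in the last bar.

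The heavy chains also resemble each other in sequence. GENCODE M1 transcripts that overlap the deposited span were found for 25 of the 31 class I heavy chain entries. The share of their 50-base words that occurred in a transcript of a gene elsewhere ran from 0 to 44.2%. Its median was 13.6% over the 8 genes averaging 1 RPKM or more and 5.555% over the 10 genes listed at 0. These leave out H2-L, H2-Q8, H2-Q9 and H2-T9, also listed at 0, which had no such transcript and overlap another same-strand entry. Words shared with an entry at the same place do not count in this share. The medians therefore do not show that sequence likeness affects the zeros less. H2-T22 and H2-T10 shared 44.2% and 40.5%, mostly with each other, and H2-D1 and H2-K1 shared 17% and 8.87%. B2m, H2-Aa, H2-Ab1, H2-Eb1 and Psmb9 shared none with a gene elsewhere. For Psmb9, 1290 of 1302 words also stood in another GENCODE entry of the same symbol at the same place. H2-Q6 and H2-Q7 shared 23.2% and 27%, H2-Q2 21.6% and H2-T23 14.8%. Of the 238 shared words of H2-Q2, 237 stood in another entry of the same symbol at another place. H2-Q4 shared 17.3%, most often with H2-Q6, which was listed at 0. The values of the genes with shared words are uncertain for this reason, since reads from shared stretches could be split or dropped.

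Between the 2 animals, most of the abundant genes were higher in uterus 2. Of the 30 genes averaging 1 RPKM or more, 26 were higher in uterus 2, where 50.1% of all genes at that level were. Their median log2 ratio, with 0.1 RPKM added to each value, was 0.28 (-1.55 to 1.00), against 0.000667 over all genes. By role the median log2 ratio was 0.54 for the immunoproteasome, 0.44 for the other class I heavy chains, 0.40 for peptide exchange, 0.32 for the classical heavy chains, 0.30 for the class II chains, 0.11 for peptide loading and -0.06 for the regulators. At least 2-fold apart were 2 of the 30, H2-DMb2 upwards and H2-M10.2 downwards, against 2.6% of all genes, H2-DMb2 on 6 and 14 reads and H2-M10.2 on 6 and 2 reads.

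**Figure D5:**
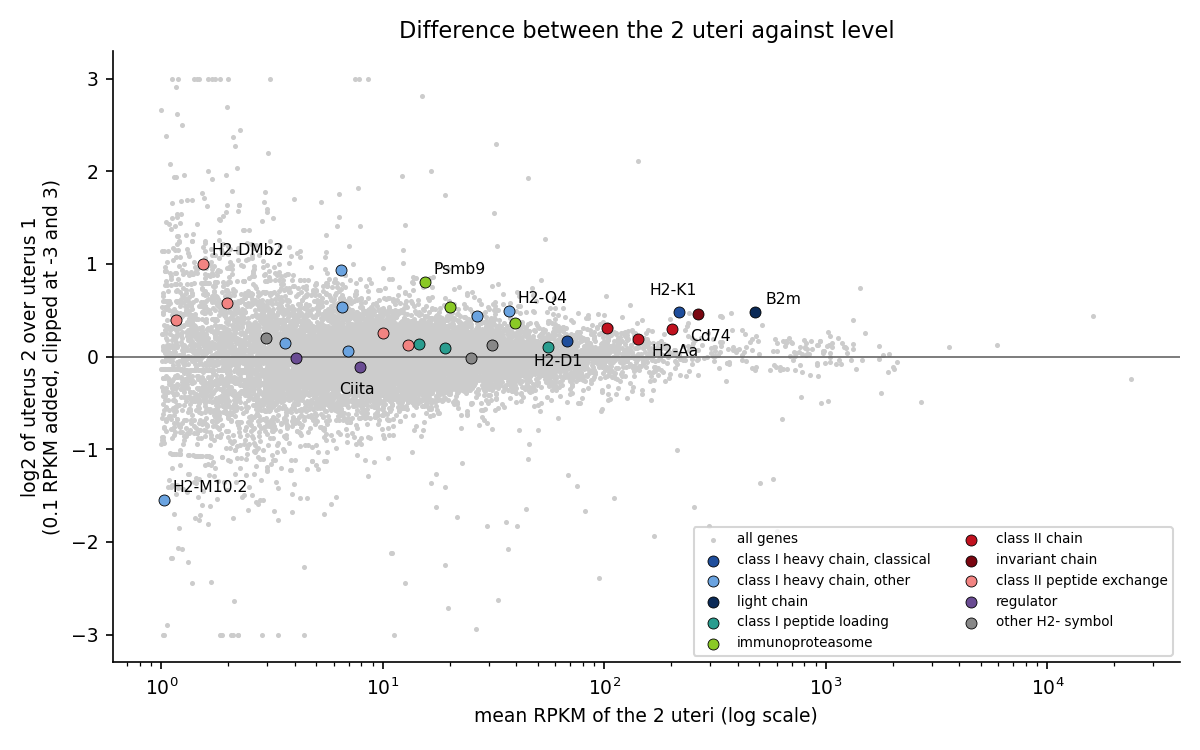
Log2 ratio of uterus 2 to uterus 1 (0.1 RPKM added, values beyond the axis drawn at its ends) against mean RPKM on a log scale, for all genes averaging 1 RPKM or more (grey) and the 30 genes described here (coloured by role). The coloured points lie mostly above 0, with B2m at 0.48, H2-K1 at 0.48 and Cd74 at 0.46, and H2-M10.2 lies lowest at -1.55.

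The recovered reads show how much of this exceeds counting error. A two-sided exact binomial test compared the reads of the 2 libraries for each gene, adjusted by Benjamini-Hochberg over 15152 genes with at least 6 reads. It compares 2 libraries, not conditions, and with 1 library per animal it contains no spread between animals. It called 7 of the 31 genes tested higher in uterus 2, against 2.2% of all genes, and 0 lower, against 2.59% of all genes. With no adjustment 12 of the 31, all higher in uterus 2, had p under 0.05, against 2383 of 15152 genes over the whole table. Among genes with at least 100 reads in sum, 7 of 22 were called higher, against 3.05% of all such genes.

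Of the class I genes, B2m was 1.40 times higher in uterus 2 (95% exact counting interval 1.30 to 1.498, adjusted p = 8.16e-19, exact binomial test) and H2-K1 also 1.40 times (1.29 to 1.504, adjusted p = 3.74e-16). The H2-K1 interval and p rest on the transcript length that was assigned to it. With the smallest whole reads its call held (adjusted p = 8.10e-08, exact binomial test). H2-Q4 was 1.41 times higher (1.18 to 1.68, adjusted p = 0.00449). H2-D1 was 1.12 times higher, and its interval included no difference (0.985 to 1.28, adjusted p = 0.402). The H2-T23 ratio of 1.36 (1.07 to 1.74) was not called either (adjusted p = 0.137). Of the class II genes, Cd74 was 1.38 times higher (1.28 to 1.48, adjusted p = 1.53e-15), H2-Eb1 1.24 times (1.12 to 1.38, adjusted p = 0.00301) and H2-Aa 1.23 times (1.12 to 1.35, adjusted p = 0.00100). H2-Ab1, at 1.14 times (1.026 to 1.27), was not called (adjusted p = 0.158). Whether any pair of these ratios differs was not tested.

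Psmb9 was 1.75 times higher in uterus 2 (1.30 to 2.37, adjusted p = 0.00476, exact binomial test), but its reads rest on the transcript length that was assigned to it. With the smallest whole reads that give its ratio the call was lost (adjusted p = 0.124). Psmb10 (1.45 times, 1.09 to 1.95, adjusted p = 0.118) and Psmb8 (1.29 times, 1.05 to 1.59, adjusted p = 0.154) were not called, and neither were Tapbp (1.08 times, 0.963 to 1.21), Tap2 (1.06 times, 0.867 to 1.31) and Tap1 (1.10 times, 0.888 to 1.37). The regulators gave 0.926 times for Ciita (0.749 to 1.14) and 0.993 times for Nlrc5 (0.758 to 1.30). Reads copied by PCR are not independent molecules, so these intervals cover counting error only.

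The genes around the pathway gave 7 of 49 called higher in uterus 2 and 0 lower by the same exact binomial test, with 13 at an unadjusted p under 0.05. Of all genes tested, 2.2% were called higher and 2.59% lower, and 2383 of 15152 had an unadjusted p under 0.05. Of the loading partners these were Calr, Canx and Pdia3, of the class II route Ctsb, Ctss and Ifi30, and of the transcription list Creb1. Ctss, the protease that trims the invariant chain, lay at 49.0 and 70.6 RPKM (adjusted p = 0.000298, exact binomial test), and Ifi30, the thiol reductase of endosomes, at 33.2 and 48.6 RPKM (adjusted p = 0.0205). None of the 13 proteasome genes outside the rule was called in either direction, with 2 at an unadjusted p under 0.05, a share near that of the whole table. The summed level of these 13 genes was 920.1 and 919 RPKM, while that of the 3 immunoproteasome subunits was 62.3 and 88.3 RPKM.

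Whole uterus holds many cell types, and a higher level from more cells of a type cannot be told apart from more RNA per cell. The summed level of the class I heavy chains differed by 0.41 on the log2 scale (uterus 2 over uterus 1), that of the class II chains by 0.27 and Cd74 by 0.46. The marker sums below are given on the same scale. Ptprc, carried by all leukocytes, lay at 17.7 and 21.6 RPKM (0.29, adjusted p = 0.0641, exact binomial test). The 7 dendritic cell markers summed to 18.4 and 16.9 RPKM (-0.13), with 6 of 7 detected. They were led by Zbtb46 (6.26 and 4.72 RPKM) and Cd209a (4.57 and 3.96 RPKM). Lower in uterus 2 were these leaders, Xcr1 (1.87 and 1.32 RPKM) and Ccr7 (0.264 and 0.238 RPKM). Itgax (1.56 and 2.51 RPKM), Clec9a (2.06 and 2.21 RPKM) and Flt3 (1.85 and 1.93 RPKM) had their higher value in uterus 2. None of the 6 dendritic cell markers tested was called. The 6 macrophage markers summed to 70.5 and 74.4 RPKM (0.08), led by Csf1r (19.4 and 22.9 RPKM) and Emr1 (19.2 and 17.3 RPKM), with 5 of 6 detected. The 5 B cell markers summed to 2.64 and 6.60 RPKM (1.32) from 16 and 39 reads, led by Cd79a (1.18 and 2.83 RPKM) and Cd79b (0.653 and 2.75 RPKM), with Pax5 listed at 0 in uterus 1. The 4 T cell markers summed to 5.08 and 6.40 RPKM (0.33), led by Cd3g (2.80 and 4.13 RPKM) and Cd3e (1.27 and 0.982 RPKM). Of the neutrophil markers S100a8 lay at 1.33 and 1.20 RPKM and S100a9 at 0.534 and 1.93 RPKM, from 7 and 10 reads over 3 genes (0.62), and Ly6g was not analysed here.

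The 5 epithelial markers summed to 244 and 279 RPKM (0.20 on the log2 scale). Krt18 (70.4 and 94.3 RPKM) was called higher in uterus 2 (adjusted p = 0.000642, exact binomial test), and Krt8 lay at 69.4 and 78.5 RPKM, Epcam at 26.4 and 33.5 RPKM, Krt19 at 51.1 and 47.9 RPKM and Cdh1 at 26.4 and 24.9 RPKM. The 3 endothelial markers summed to 118 and 113 RPKM (-0.06). Pecam1 (50.7 and 50.9 RPKM) and Cdh5 (44.4 and 46.0 RPKM) were close in the uteri, and Kdr (22.9 and 16.6 RPKM) was called lower in uterus 2 (adjusted p = 0.000184, exact binomial test). The 4 stromal markers summed to 3258 and 2971 RPKM (-0.13). Col1a1 (1184 and 851 RPKM) was called lower (adjusted p = 2.39e-225, exact binomial test). The other markers of the list had their higher value in uterus 2 and were not called: Col3a1 at 1908 and 1939 RPKM, Pdgfra at 133 and 142 RPKM and Hand2 at 33.3 and 39.5 RPKM. The 3 smooth muscle markers summed to 1182 and 1161 RPKM (-0.03), with Acta2 (653 and 592 RPKM) called lower (adjusted p = 3.15e-06, exact binomial test) and Myh11 (314 and 350.1 RPKM) called higher (adjusted p = 7.37e-11). The part of any of these cell types in the higher antigen presentation transcripts was not tested.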

How the data were processed

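RNA was measured in whole uterus of 2 mice. TRIzol was used for extraction, per the labels' protocols, and libraries were made with an Illumina TruSeq kit. The submitters' processing notes list TopHat, edgeR and the genome build mm9, with no version or role. The counting program, annotation release, use of strand and handling of shared bases are not given in the sources used here. The scaling to RPKM was done by the authors, per the labels, and the deposited RPKM values were used as they stand. The members and gene lists were chosen with earlier results of these data known.

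Deposited starts count from 0 and were written 1-based. Reads behind the RPKM values were recovered from the whole-number steps of 1589 single-exon genes: all 17426 genes above 0 gave whole reads with a whole transcript length (relative tolerance 1e-09), and 2621 of them needed a multiple of the smallest reads, chosen by annotated length. The recovery was also run on simulated data, but the outcome of that run is not given here. Total reads were 3831638 and 4256289. Log2 ratios used 0.1 RPKM added to both values and genes averaging 1 RPKM or more. Nothing in the labels pairs or batches the 2 libraries. The planned comparison of protein sequences was not done. 50-base words that GENCODE M1 transcripts share with genes at other places, and the motifs GGGATTCC and AACNGATG, were chosen after seeing the data. Promoters came from RefSeq (GRCm38.p6) and were not placed on mm9. Every member averaging 1 RPKM or more was named with both values, lower genes by symbol, and of each other list the 2 highest, with the constitutive proteasome subunits, Rfx5, Irf1 and Ptprc always. Genes named beyond that rule were chosen after their values were seen. Python 3.11.15, pandas 2.3.3, numpy 2.4.6, scipy 1.17.1 and matplotlib 3.10.9 were used.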

Additional observations from a re-analysis of the deposited data

How the results depend on the processing

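Of 220 recomputed values, 169 stayed on the same side of their threshold or within a set limit, such as the spread between the uteri. Another 50 moved, 0 reversed and 1, the Psmb9 call, was lost. With 1 uterus left out, a single gene's value always lies within 1 SD of the mean, so those values could not move. Rescaling each library to the same sum (TPM scale) accounts for most of the moved values. It is a change of unit that multiplies all genes of a library alike, so it tests nothing about the processing. Group medians on that scale were 160.2 for the classical heavy chains, 0.343 for the other class I chains, 45.3 for peptide loading, 244 for the class II chains, 4.66 for peptide exchange, 47.7 for the immunoproteasome, 626 for the invariant chain, 1129 for the light chain, 59.2 for the other H2- symbols, 14.1 for the regulators and 4.15 over all 54 genes. Leaving out genes listed at 0 in either uterus gave medians of 142 RPKM for the classical heavy chains, 1.028 for the other class I chains, 122 for the class II chains and 10.02 over those of the 54 that remained. In 1 uterus alone, the median ran from 0 to 0.150 RPKM for the other class I chains and from 1.57 to 2.23 RPKM over the 54 genes. The number of genes at least 2-fold apart was 2, and became 0 with 1 RPKM added, 5 with no minimum and 0 at a mean of at least 10 RPKM, since the genes concerned have few reads. With the smallest possible reads, 6 of the 7 calls remained, and 581 of 14896 genes of the table were called, against 727 of 15152. No paired analysis was possible because the 2 uteri form a single group. With 1 library per animal, spread between animals could not be separated from other differences between the 2 libraries.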
